A study of Mus musculus with 5 samples.

Results

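P-type ATPases are membrane pumps that take a phosphate from ATP onto an aspartate of their own chain and use the resulting change of shape to move ions or lipids across a membrane. The family examined here was chosen by gene symbol from the array annotation, with the probe set of the highest mean signal kept for each symbol, and held 37 of the 19938 genes measured. The rule found 39 probe sets; Atp13a3 and Atp1b3 had more than 1. The label P-type ATPase holds for 32 of the members, the catalytic subunits. The other 5 members (Atp1b1, Atp1b2, Atp1b3, Atp1b4 and Atp4b) are named as non-catalytic beta subunits. That family includes escorts of sodium and proton pumps to the cell surface, a role not claimed here for each member. Because Atp13a3 was singled out after its difference between the groups had been seen, its values are given as a description without a test. Counts over all members include it and are no support for it.

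The tissue was mammary gland of 5 female FvB/N mice aged 8 weeks, with 1 array per mouse. The 2 controls carried the MMTV-rtTA transgene alone, and the other 3 mice carried rtTA together with a cyclin D1 (CCND1) transgene. MMTV is a promoter active in mammary epithelium, and rtTA switches on its responder gene in the presence of doxycycline, so transgene expression depends on the epithelium and on the drug. The labels give 7 days of doxycycline but word it for a KE mutant of CCND1, and do not say whether the controls received it. The comparison addresses how expression in the gland differs between mice with and without the cyclin D1 transgene. If the controls received no doxycycline, drug and transgene cannot be told apart. The values are log2 expression per probe set, and every difference below is cyclin D1 minus control.

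In the secreting breast, sarco/endoplasmic reticulum calcium pumps fill the stores of the cell, secretory pathway pumps load the Golgi with calcium and manganese, and plasma membrane pumps export calcium, part of it into milk. Copper pumps deliver copper to enzymes made in the Golgi. The P4 group, called flippases, turns phospholipids from the outer to the inner leaflet of a membrane, and the P5 group handles polyamines and misplaced membrane helices.

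The arrays were not alike in range. Control values had a spread across genes of 0.735 and 0.926 (SD) and cyclin D1 values one of 1.20 to 1.38, and the controls correlated with each other at a Pearson r of 0.779 across genes. In the brightest 10% of genes (1994 genes) the median difference was 1.59, against -0.05 over all genes, so differences were also computed after the 5 arrays had been quantile-normalized again (called renormalized here). The mean of 1015 olfactory receptor genes, 1.97 to 2.52 by array, served as a rough floor of signal. This floor was 2.523 and 2.383 in the controls and lower in the cyclin D1 mice, at 2.031, 1.966 and 2.235. Small falls of dim genes are to be read beside that shift. Ccnd1 itself had control values of 4.04 and 3.49 and cyclin D1 values of 4.63, 4.92 and 4.0, a difference of 0.75 that did not pass the test (limma adjusted p = 0.218) and was -0.14 when renormalized. Of 11 measured markers of alveolar and luminal epithelium, all 11 were higher in every cyclin D1 mouse than in both controls and 4 passed the test. Over all genes these shares were 22.4% and 5.38%, and in the brightest 10% they were 1640 of 1994 genes and 36.0%. The mean level of the marker list was 4.59 and 5.07 in the controls and 6.31 to 6.76 in the cyclin D1 mice. After renormalization 9 of the 11 differences were above 0 and 0 passed, and the median difference was 0.47, against 1.37 before. In whole tissue, more cells of a type and more RNA per cell cannot be told apart. The part of epithelial content and of array range in the differences below was not tested.

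Most of the family differed little, and a small group of bright members stood far above the controls. Of the 36 members other than Atp13a3, 2 rose and 0 fell in the limma fit with Benjamini-Hochberg adjustment over all genes. Those were the endoplasmic reticulum calcium pump gene Atp2a2 and the flippase gene Atp11b. The share that rose, 5.56%, was close to the 5.38% of all 19938 genes called higher, and 0.687% of all genes were called lower. After renormalization 0 members passed, beside 0.256% of all genes called higher and 0.105% called lower, and 10 members and 3736 of all genes had an unadjusted p under 0.05. On the deposited scale, at an unadjusted p under 0.05, there were 11 of the 37 members, Atp13a3 included, and 5244 of all genes. The members' median difference was 0.16, and it was 0.16 again after renormalization. Of the 37 differences 23 were above 0, 26 were smaller than 0.5 in either direction, 8 exceeded 1, and 0 were below -1.

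Groups did not overlap in 19 members: in 12 all cyclin D1 values lay above both controls, and in 7 all lay below. Over all genes these shares were 22.4% above and 22.6% below. The 12 were Atp13a3, Atp2a2, Atp2c1, Atp11b, Atp1b3, Atp2b1, Atp1b1, Atp13a4, Atp7a, Atp9b, Atp10b and Atp9a. The 7 were Atp2a1, Atp13a1, Atp8b5, Atp1b4, Atp1b2, Atp2b3 and Atp10a. No control value of a member exceeded 5, whereas 8 members exceeded it in at least 1 cyclin D1 mouse. Of all 19938 genes, 305 and 712 exceeded 5 in the controls and 1888, 2120 and 1597 in the cyclin D1 mice.

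**Figure D1:**
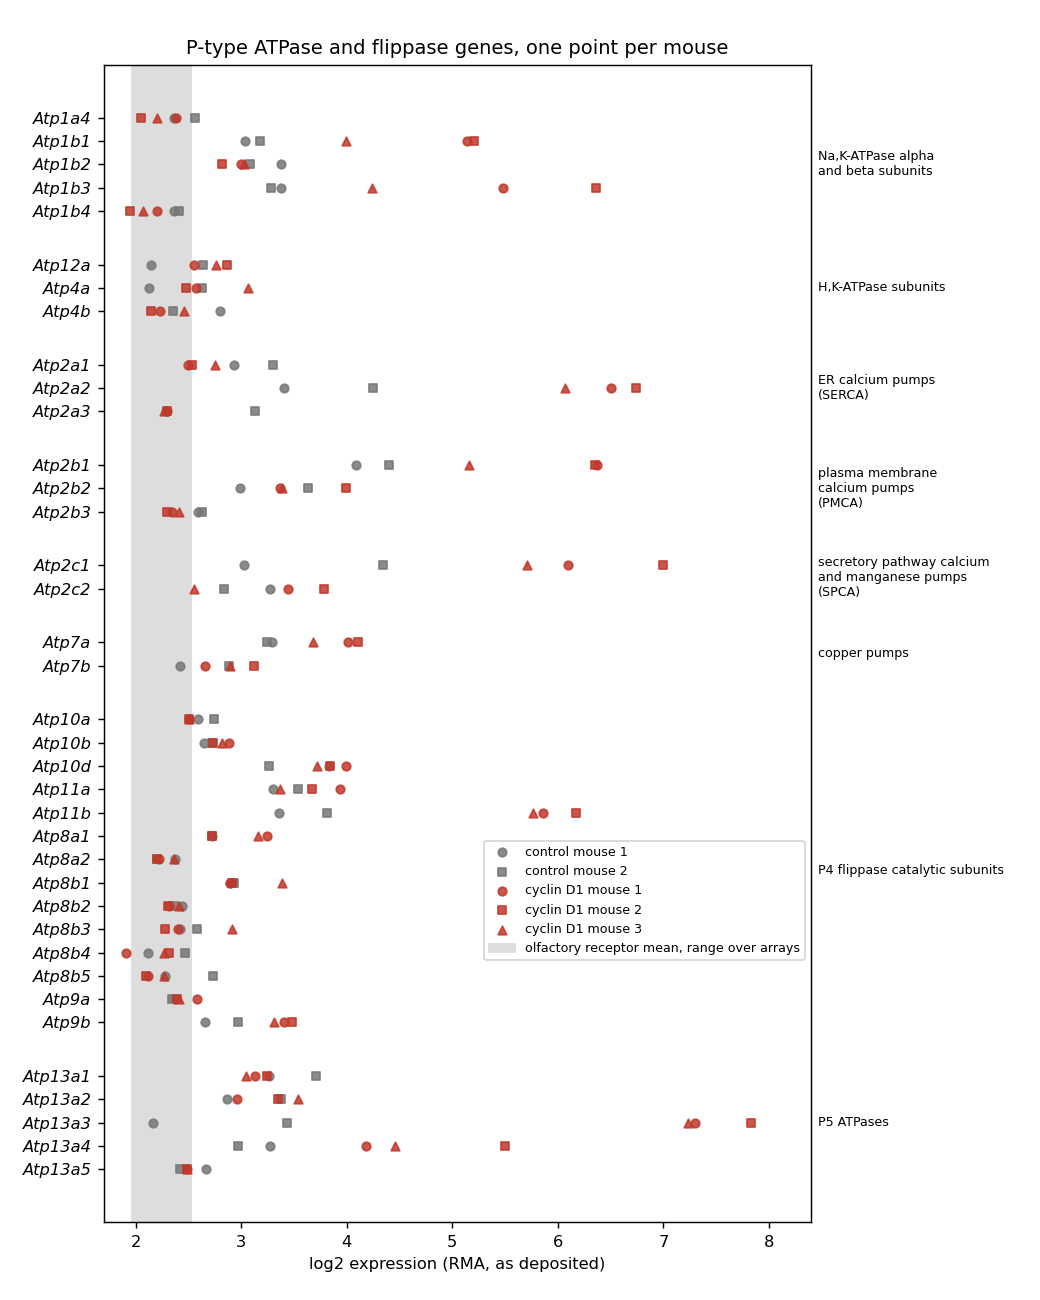
Log2 expression (horizontal axis, RMA as deposited) of the 37 members, grouped by class, with 1 point per mouse; grey points are the 2 controls, red points the 3 cyclin D1 mice, and the grey band spans the olfactory receptor means of the 5 arrays, 1.97 to 2.52. Marker shapes number the mice within a group and do not pair them. Atp13a3, Atp2a2, Atp2c1 and Atp11b show the cyclin D1 mice clear of both controls, while most flippase genes lie close together.

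Signal and difference went together within the family as over all genes. All 6 members in the brightest 10% of genes (Atp13a3, Atp2a2, Atp2b1, Atp2c1, Atp11b and Atp1b3) were higher in every cyclin D1 mouse, with a median difference of 2.47, or 1.53 when renormalized. Among all genes of that range the medians were 1.59 and 0.36, and 1640 of 1994 had every cyclin D1 value above both controls. The 15 members in the dimmest 40% of genes had a median of -0.12, beside -0.23 for the 7975 genes there. Since the mean over all arrays includes the cyclin D1 values, a gene that is higher in those mice is moved toward the bright end, and these medians are a description without a test.

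**Figure D2:**
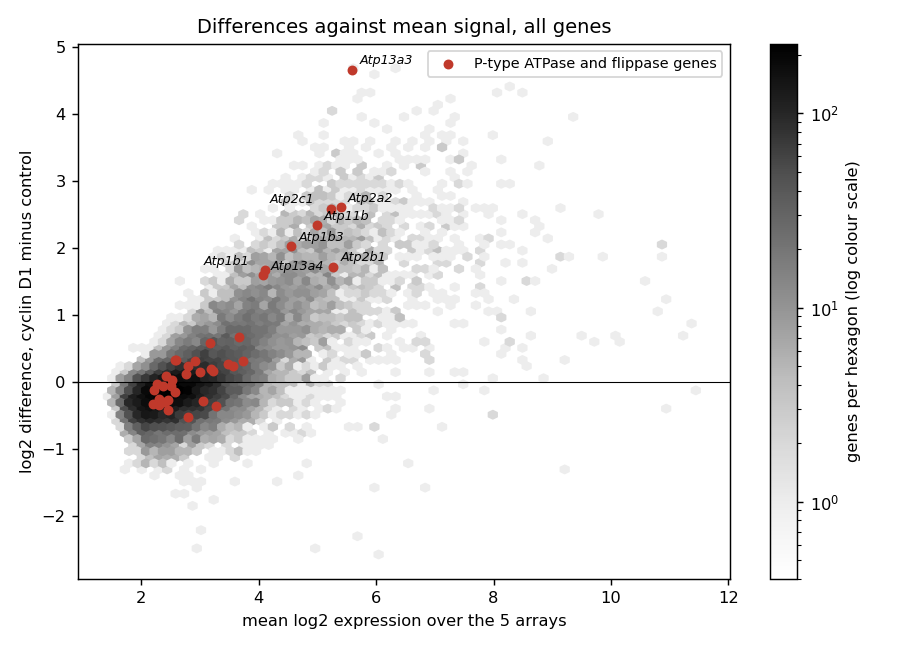
Log2 difference, cyclin D1 minus control (vertical axis), against mean log2 expression over the 5 arrays (horizontal axis) for all 19938 genes, shaded by the number of genes per hexagon, with the 37 members in red. Atp13a3 at 4.66 lies above the body of genes of its signal, and Atp2b1 at 1.72 lies inside it.

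Promoter windows of bright members with large differences (Atp11b, Atp2c1 and Atp2b1) are shown beside that of Atp2a1, a member of middling signal with lower values in the cyclin D1 mice, so that their letters can be compared. The RefSeq table (GRCm38.p6) held 35 start sites of 25 members. Each window is the 250 bases before an annotated start, read on the gene's strand, and capitals mark matches on either strand to GGGCGG (the GC box, bound by Sp factors), CCAAT (bound by NF-Y), TATAAA (the TATA box), CACGTG (the E-box of Myc-like factors), TTCNNNGAA (the site form of STAT factors) or the E2F forms TTTCCCGC and TTTGGCGC. Overlapping matches were each counted. Starts of 1 gene are ordered by coordinate, so for Atp2c1, on the minus strand, the other start is the upstream one.
Atp11b: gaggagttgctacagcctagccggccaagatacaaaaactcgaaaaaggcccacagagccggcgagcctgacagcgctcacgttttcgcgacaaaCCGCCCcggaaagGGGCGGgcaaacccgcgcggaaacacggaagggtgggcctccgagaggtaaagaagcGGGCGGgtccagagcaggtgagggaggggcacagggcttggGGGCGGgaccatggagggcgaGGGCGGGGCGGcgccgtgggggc
Atp2c1, first start: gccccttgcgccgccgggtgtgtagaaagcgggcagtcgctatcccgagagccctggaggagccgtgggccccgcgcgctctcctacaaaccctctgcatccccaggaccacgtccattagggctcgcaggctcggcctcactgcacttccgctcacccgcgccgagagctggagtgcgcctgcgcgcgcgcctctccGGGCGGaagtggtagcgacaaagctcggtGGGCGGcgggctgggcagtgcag
Atp2c1, other start: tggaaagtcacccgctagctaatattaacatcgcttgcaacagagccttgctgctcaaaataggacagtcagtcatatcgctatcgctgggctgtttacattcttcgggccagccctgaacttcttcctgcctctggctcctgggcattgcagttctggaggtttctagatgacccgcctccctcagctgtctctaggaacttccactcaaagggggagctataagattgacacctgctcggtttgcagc
Atp2b1, first start: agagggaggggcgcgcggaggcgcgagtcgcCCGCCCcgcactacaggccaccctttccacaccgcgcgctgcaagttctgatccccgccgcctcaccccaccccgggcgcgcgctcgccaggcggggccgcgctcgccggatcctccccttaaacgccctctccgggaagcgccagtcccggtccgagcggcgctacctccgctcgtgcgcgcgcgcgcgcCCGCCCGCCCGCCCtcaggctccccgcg
Atp2a1: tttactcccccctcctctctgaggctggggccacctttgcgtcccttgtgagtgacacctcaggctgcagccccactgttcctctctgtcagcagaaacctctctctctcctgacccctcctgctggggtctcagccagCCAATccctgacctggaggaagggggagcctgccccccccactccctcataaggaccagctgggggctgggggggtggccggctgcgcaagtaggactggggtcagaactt
These lie at chr3:35753813-35754062 (plus strand), chr9:105495134-105495383 and chr9:105521258-105521507 (minus), chr10:98914392-98914641 (plus) and chr7:126463074-126463323 (minus). The Atp11b window held 6 GC boxes, and those of Atp2c1 held 2 and 0. The windows of Atp2b1 held 4 (shown) and 3, whereas that of Atp2a1 held 0, with 1 CCAAT. Among members not shown, the window of Atp2a3, with a difference of -0.42, held 5. Those of Atp11a and Atp8a1 held 4 each, those of Atp4a and Atp13a5 held 0, and those of Atp13a4 held 0 and 1. Atp13a3 and Atp2a2 had no window. GC boxes were found in 22 of the 35 member windows (62.9%) and in 32.7% of all 32851 windows. TATAAA was in 0 of the 35, against 12.4% of all. TTCNNNGAA was in 1 of 35, that of Atp1b4 (2.86%, against 7.02%), CACGTG in 2 (5.71%, against 6.02%) and an E2F form in 2 (5.71%, against 1.3%), those of Atp10a and of Atp8b2. CCAAT was in 7 (against 33.8% of all). The median GC content was 64.0% in the member windows and 52.4% in all. Windows of 1 gene share sequence, and a match is only a string of letters.

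Among the calcium pumps of the endoplasmic reticulum (SERCA), 1 of 3 rose, beside 5.38% of all genes. Atp2a2, the form found in nearly all cells and in the secretory epithelium, measured 3.41 and 4.25 in the controls and 6.5, 6.74 and 6.07 in the cyclin D1 mice. All cyclin D1 values lay above both controls, with the lowest of them well clear of control 2. The difference was 2.61 (SE 0.32, limma adjusted p = 0.022), a 6.09-fold higher signal, with means of 3.83 ± 0.60 (SD, n = 2) and 6.44 ± 0.34 (SD, n = 3). Renormalized it was 1.56 and did not pass (adjusted p = 0.0918). In 3 of the fits that left out an array (without control replicate 1, cyclin D1 replicate 1 or cyclin D1 replicate 2) limma called 0 of all 19938 genes, with 4973, 3568 and 3491 genes at an unadjusted p under 0.05, so a call lost there is not particular to a gene. The Atp2a2 call was lost in these fits (difference 2.19, 2.58 and 2.45) and without cyclin D1 replicate 3 (2.79), with adjusted p-values of 0.0541 to 0.111, and was kept without control replicate 2 (3.03, adjusted p = 0.0367). Over all 15 alternatives the adjusted p ran from 0.0152 to 0.111 with limma, and 10 passed.

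The other SERCA genes went the other way without passing. Atp2a1, the pump of fast skeletal muscle, measured 2.93 and 3.3 in the controls and 2.5, 2.53 and 2.75 in the cyclin D1 mice, with no overlap. Its difference of -0.52 (SE 0.18, limma adjusted p = 0.141) was the lowest of the family and stayed at -0.50 when renormalized. Of 14 skeletal muscle markers 13 had differences below 0, and 0 passed. Differences below 0 were also found in 11104 of all 19938 genes and in 6603 of the 7975 dimmest genes. The mean level of the muscle list was 2.70 to 2.91 in the controls and 2.54 to 2.72 in the cyclin D1 mice. Levels differed within the list: Myh1, Pvalb and Mylpf lay between 1.92 and 2.59 on all arrays, and Tnnt3, Tnnc2, Tnni2 and Ckm between 2.93 and 3.58. The part of muscle in the Atp2a1 values was not tested. Atp2a3, the form of blood and some epithelial cells, was 3.13 in control 2 and 2.27 to 2.3 in the other 4 mice, and its difference of -0.42 rested on that control, being 0.0070 without it.

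Of the plasma membrane calcium pumps (PMCA), Atp2b1, the widely expressed form, had the larger difference. It measured 4.09 and 4.4 in the controls and 6.37, 6.35 and 5.16 in the cyclin D1 mice, and the groups did not overlap. The difference of 1.72 (SE 0.41) did not pass (limma adjusted p = 0.0745), and it became 0.31 after renormalization. Ranked within each array, Atp2b1 overlapped between the groups, and its percentile among all genes was 94.4 and 93.1 in the controls and 92.9 to 96.5 in the cyclin D1 mice. Without cyclin D1 replicate 3 it passed, at 2.12 (adjusted p = 0.0439, over a range of 0.0278 to 0.557 across alternatives).

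Atp2b2 encodes the PMCA of the apical membrane that exports calcium into milk during lactation. Its values were 2.99 and 3.63 in the controls and 3.37, 3.99 and 3.39 in the cyclin D1 mice, so the groups overlapped. The difference was 0.27, with a 95% interval of -0.46 to 1.0 (limma adjusted p = 0.573), and it was 0.05 when renormalized and -0.05 without control replicate 1. That interval lay below those of Atp2a2 (1.79 to 3.42) and Atp2c1 (1.25 to 3.93) and overlapped that of Atp2b1 (0.68 to 2.76). No test between genes was run. Atp2b3, a form of nerve cells, lay at 2.59 and 2.63 in the controls and 2.3 to 2.41 in the cyclin D1 mice, near the floor in both groups.

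The pumps of the secretory pathway (SPCA) differed from each other in their values. Atp2c1, which loads the Golgi of most cells with calcium and manganese, measured 3.03 and 4.34 in the controls and 6.1, 7.0 and 5.71 in the cyclin D1 mice. All cyclin D1 values were above both controls, and control 2 stood well above control 1. The difference of 2.59 (SE 0.53, limma adjusted p = 0.0555) did not pass, with 1.69 after renormalization, and it ran from 1.94 without control replicate 1 to 3.25 without control replicate 2. It passed in 3 of 15 alternatives. Atp2c2, the SPCA of secretory epithelia, measured 3.27 and 2.84 in the controls and 3.44, 3.78 and 2.55 in the cyclin D1 mice. Replicate 3 lay below both controls and the other cyclin D1 mice above them, and the difference of 0.20 had an interval of -0.79 to 1.18.

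Copper pumps differed modestly. Atp7a, which supplies copper enzymes in most tissues and exports copper from cells, measured 3.29 and 3.24 in the controls and 4.01, 4.11 and 3.68 in the cyclin D1 mice. The groups did not overlap, the controls were nearly equal, and the difference of 0.67 (SE 0.17, interval 0.23 to 1.11) missed the threshold over all genes (limma adjusted p = 0.0864) and was 0.38 when renormalized. It passed in 0 of 15 alternatives. Atp7b, the copper pump of liver and of secreting mammary epithelium, measured 2.42 and 2.88 in the controls and 2.66, 3.12 and 2.89 in the cyclin D1 mice. Its groups overlapped, and the difference of 0.24 had an interval of -0.30 to 0.78.

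Genes that handle copper beside the pumps were given by a list, of which 15 of 16 were measured. Of these 1 rose (6.67%, near the 5.38% of all genes) and 0 fell, with a median difference of 0.29 that turned to -0.16 after renormalization. Cp, the copper-carrying ferroxidase ceruloplasmin, which is loaded by the copper pumps, measured 4.09 and 5.68 in the controls and 9.27, 8.84 and 8.46 in the cyclin D1 mice, a rise of 3.97 (SE 0.51, limma adjusted p = 0.0231; 2.50 when renormalized, not passing). Slc31a1, the copper importer of the cell surface, differed by 2.06 (SE 0.50, limma adjusted p = 0.0751), from 2.14 and 2.6 to 4.22, 5.34 and 3.71. Mt2, a metallothionein that binds copper and zinc, differed by 0.81 (limma adjusted p = 0.0904) and by -0.49 after renormalization. Atox1, the chaperone that hands copper to the pumps, measured 4.01 and 4.14 in the controls and 4.06 to 4.22 in the cyclin D1 mice.

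Genes of calcium entry, release and storage gave 1 rise among 17 measured (5.88%, near the 5.38% of all genes) and 0 falls, with a median of 0.08 (-0.03 when renormalized). The gene that rose was Tmem165, a Golgi membrane protein needed for manganese supply and Golgi glycosylation. Its values were 4.19 and 4.75 in the controls and 7.52, 8.35 and 7.43 in the cyclin D1 mice, a difference of 3.30 (SE 0.34, limma adjusted p = 0.0171) that became 1.71 after renormalization without passing. Itpr2, a calcium release channel of the endoplasmic reticulum, differed by 0.90 (limma adjusted p = 0.0597), and Canx, the lectin chaperone calnexin, by 2.47 (limma adjusted p = 0.063). Casr, the calcium-sensing receptor, was lower in every cyclin D1 mouse, at 2.43 to 2.62 against 2.89 and 2.99, without passing (limma adjusted p = 0.128). Of the peptide regulators of the SERCA pumps, Pln differed by -0.01, Sln by -0.19 and Mrln by -0.64, none passing. Sln and Pln had differences above 0 when renormalized, and Mrln had -0.70. Mrln measured 3.42 and 2.57 in the controls and 2.51, 2.11 and 2.45 in the cyclin D1 mice, all below both controls, as in 22.6% of all genes.

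Of the sodium pump genes, the beta subunits Atp1b1 and Atp1b3 had large differences that did not pass. Atp1b1, the common beta subunit of epithelia, measured 3.04 and 3.18 in the controls and 5.14, 5.21 and 3.99 in the cyclin D1 mice, a difference of 1.67 (SE 0.40, limma adjusted p = 0.0741; 1.26 when renormalized). Atp1b3 measured 3.38 and 3.28 in the controls and 5.48, 6.36 and 4.24 in the cyclin D1 mice, a difference of 2.03 (SE 0.61, limma adjusted p = 0.113; 1.40 when renormalized). In both, replicate 3 was the lowest cyclin D1 mouse and still above the controls. The other Atp1b3 probe set gave 3.36 and 3.29 against 4.86, 5.95 and 4.16, a difference of 1.66. Without cyclin D1 replicate 3, Atp1b1 passed at 2.06 (adjusted p = 0.0439, over a range of 0.027 to 0.247 across alternatives). Atp1b2, a form of glia and nerve, had values of 3.38 and 3.08 in the controls and 2.82 to 3.03 in the cyclin D1 mice. The sperm pump gene Atp1a4 and Atp1b4 stayed between 1.95 and 2.56, and Atp1b4 lay at or below the olfactory receptor mean on 3 of the 5 arrays.

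The FXYD proteins are small single-pass partners that tune the sodium pump, and 1 of 7 rose (14.3%, beside the 5.38% of all genes). Fxyd3, a form of epithelia, measured 3.82 and 4.22 in the controls and 8.15, 7.15 and 7.08 in the cyclin D1 mice, a rise of 3.44 (SE 0.37, limma adjusted p = 0.0178; 2.07 when renormalized, not passing). Fxyd1, Fxyd2, Fxyd4, Fxyd5, Fxyd6 and Fxyd7 differed by -0.39 (Fxyd4) to 0.05 (Fxyd5), and their groups overlapped. Of these, Fxyd2 lay at or below the floor in both controls. The proton and potassium pump genes Atp4a and Atp4b, of the stomach, and Atp12a, of skin and colon, lay between 2.13 and 3.06, with overlapping groups and differences of 0.33, -0.30 and 0.33.

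Among 14 flippase genes, 1 rose (7.14%, near the 5.38% of all genes) and 0 fell. Atp11b, whose product acts in endosomes and the Golgi, measured 3.36 and 3.81 in the controls and 5.86, 6.17 and 5.76 in the cyclin D1 mice. The values within each group were close, and the gap between the groups was larger than the range of either. The difference was 2.34 (SE 0.21, limma adjusted p = 0.0165), a 5.08-fold higher signal, with means of 3.58 ± 0.32 (SD, n = 2) and 5.93 ± 0.21 (SD, n = 3). Renormalized it was 1.5 and did not pass (adjusted p = 0.0528). The call was lost in the same 3 fits in which 0 of all genes were called, without control replicate 1 (2.12), cyclin D1 replicate 1 (2.38) or cyclin D1 replicate 2 (2.22). The adjusted p ran from 0.0127 to 0.103 over 15 alternatives, of which 11 passed.

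Atp9b, a flippase-like pump of the Golgi, was the next of the class, at 2.66 and 2.97 in the controls and 3.41, 3.48 and 3.31 in the cyclin D1 mice. Its difference of 0.58 (SE 0.16, limma adjusted p = 0.0927) was almost the same when renormalized, at 0.57, and it passed only without control replicate 2 (0.74, adjusted p = 0.0476, over a range of 0.0476 to 0.271). The other 12 flippase genes had differences of -0.34 (Atp8b5) to 0.32 (Atp8a1). Atp8a1, a phosphatidylserine flippase, was 2.72 in both controls and 3.24, 2.72 and 3.16 in the cyclin D1 mice. Atp11a, a plasma membrane flippase, measured 3.3 and 3.54 against 3.94, 3.67 and 3.37, and Atp10d 3.83 and 3.26 against 3.99, 3.84 and 3.72, both with differences below 0 after renormalization (-0.06 and -0.27). Atp8b1, the flippase of bile canaliculi, was 2.89 and 2.93 in the controls and 2.89, 2.91 and 3.39 in the cyclin D1 mice. In both controls Atp8a2, Atp8b2 and Atp9a did not exceed the floor, and for Atp9a the difference is only a bound, of 0.01 or more. Atp10a, Atp10b, Atp8b3, Atp8b4 and Atp8b5 ran from 1.91 (Atp8b4) to 2.91 (Atp8b3). In 5 of the 14 genes the sign of the difference changed on renormalization (Atp10d, Atp11a, Atp8a2, Atp8b2 and Atp8b4).

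Most flippases leave the endoplasmic reticulum only with a beta subunit of the Tmem30 family. Tmem30a, the general partner, measured 4.61 and 5.09 in the controls and 6.92, 6.51 and 6.39 in the cyclin D1 mice, a rise of 1.76 (SE 0.24, limma adjusted p = 0.0252). After renormalization the difference was 0.10. Tmem30b, an epithelial form, measured 3.47 and 4.27 against 4.93, 4.8 and 4.7, a difference of 0.94 that did not pass, and Tmem30c lay at or below the floor on every array. Scramblases, which move phospholipids in both directions, gave 2 rises and 0 falls among 10 measured genes, with a median of 0.30 (0.35 when renormalized). These were Tmem41b, of the endoplasmic reticulum, by 1.75 (limma adjusted p = 0.025; 0.85 when renormalized) and Plscr2 by 1.79 (limma adjusted p = 0.0333; 1.56 when renormalized), whereas Plscr1 differed by 1.62 without passing (limma adjusted p = 0.06). No scramblase gene passed after renormalization. With array weights 0 passed, with every probe set tested 1, and with averaged probe sets or a filter on dim genes 3.

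The P5 ATPases hold the member with the largest difference. Atp13a3, a polyamine transporter of endosomes and the cell surface, measured 2.16 and 3.43 in the controls and 7.3, 7.83 and 7.23 in the cyclin D1 mice on the kept probe set (10438911). The cyclin D1 values lay together, and all were far above control 2. The difference of 4.66 corresponds to a 25.3-fold higher signal on the array and was 4.01 when renormalized. Control 1 lay below the olfactory receptor mean of its array, so the size is inexact. The difference was 4.03 without control replicate 1 and 5.30 without control replicate 2. By rank within an array the percentile of the probe set was 8.93 and 76.7 in the controls and 98.5 to 99.0 in the cyclin D1 mice.

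The other Atp13a3 probe set (10438909) did not show a difference of that size. It measured 2.79 and 2.71 in the controls and 4.34, 3.23 and 3.04 in the cyclin D1 mice, a difference of 0.79, with cyclin D1 replicate 1 the highest. Averaging both probe sets gave 2.73. The annotation gives the same transcripts for both, and which part of the transcript each one reads was not analysed here.

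Atp13a4, another P5 gene, measured 3.27 and 2.97 in the controls and 4.18, 5.5 and 4.46 in the cyclin D1 mice. The groups did not overlap, and the difference of 1.60 (SE 0.41, limma adjusted p = 0.0864; 1.18 when renormalized) passed in 0 of 15 alternatives. Atp13a5, the next protein-coding gene to Atp13a4 on chromosome 16 in RefSeq order, measured 2.67 and 2.42 in the controls and 2.49 in each cyclin D1 mouse. Atp13a1, a helix dislocase of the endoplasmic reticulum, was lower in all cyclin D1 mice, at 3.05 to 3.24 against 3.26 and 3.71, a difference of -0.35 that did not pass and was -0.57 when renormalized. Atp13a2, the lysosomal polyamine exporter, measured 2.87 and 3.38 in the controls and 2.96, 3.35 and 3.54 in the cyclin D1 mice.

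**Figure D3:**
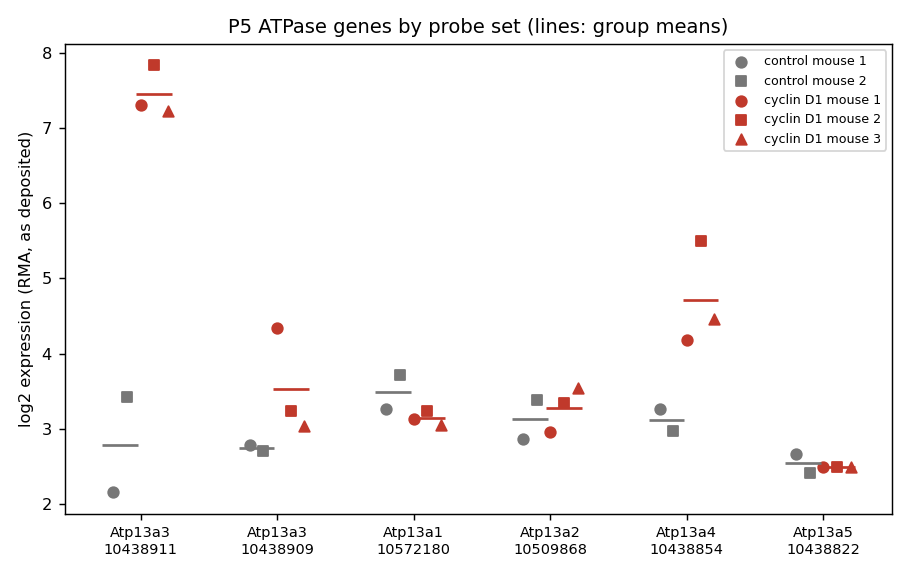
Log2 expression (vertical axis, RMA as deposited) of the P5 ATPase genes by probe set, 1 point per mouse, with lines at the group means (controls grey, n = 2; cyclin D1 red, n = 3). The kept Atp13a3 probe set shows the cyclin D1 mice between 7.23 and 7.83, the other Atp13a3 probe set between 3.04 and 4.34.

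Genes of polyamine synthesis, breakdown and control were listed beside Atp13a3, and 9 of 13 were measured. Of these 1 rose (11.1%, beside the 5.38% of all genes) and 0 fell, with a median of 0.36 (-0.01 when renormalized). Azin1, which protects ornithine decarboxylase from its antizyme, measured 3.9 and 3.85 in the controls and 5.76, 6.31 and 5.44 in the cyclin D1 mice, a rise of 1.96 (SE 0.27, limma adjusted p = 0.027; 0.79 when renormalized, not passing). Sat1, which acetylates polyamines for export, differed by 2.48 (limma adjusted p = 0.0712), from 1.54 and 2.85 to 5.41, 4.75 and 3.86. Odc1, the ornithine decarboxylase that opens polyamine synthesis, measured 2.63 and 4.19 in the controls and 5.21, 7.66 and 5.62 in the cyclin D1 mice, a difference of 2.76 that did not pass (SE 0.86, limma adjusted p = 0.123).

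**Figure D4:**
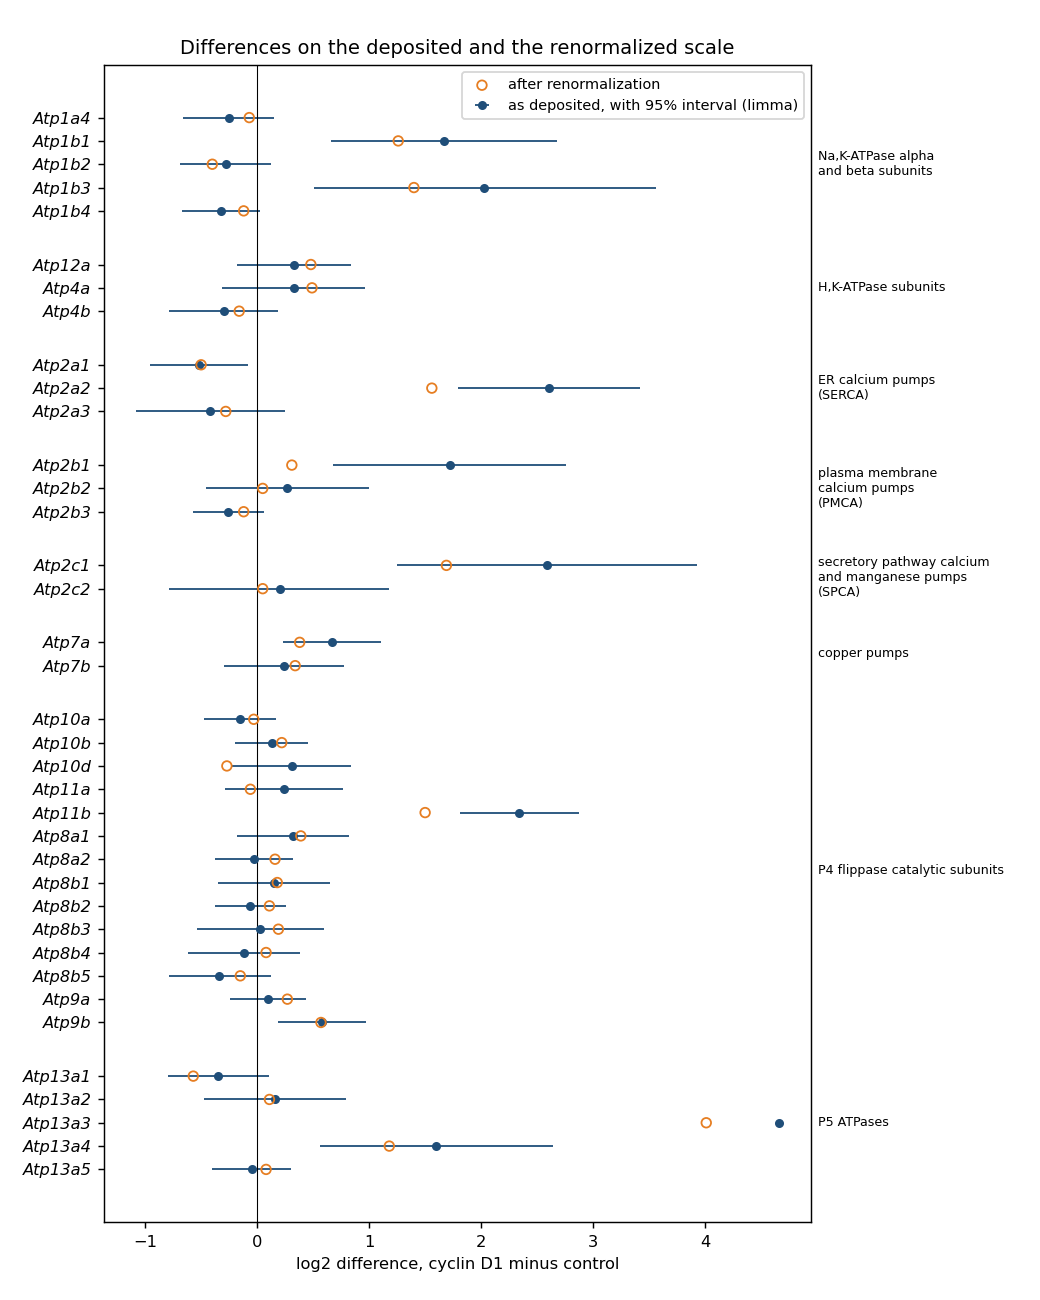
Log2 difference, cyclin D1 minus control (horizontal axis), for the 37 members by class; filled points are the deposited scale with the 95% interval of limma (none drawn for Atp13a3, chosen for its difference), open circles the renormalized scale. For Atp2b1 the value moves from 1.72 to 0.31, and for Atp9b only from 0.58 to 0.57.

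The V-type proton pumps, a structurally unrelated family of multi-subunit ATPases that acidify vesicles, were listed for comparison. Of 23 measured subunit genes, 5 rose and 0 fell, a share of 21.7% beside the 5.38% of all genes, with a median of 0.71 (0.22 when renormalized). After renormalization 0 of the 23 passed, and 1 passed under an intensity trend, with every probe set tested or with array weights. Atp6v1d rose by 1.78 (limma adjusted p = 0.0188) and the accessory gene Atp6ap2 by 1.26 (limma adjusted p = 0.0358), with renormalized differences of 0.05 and -0.03. For Atp6v1e1, at or below the floor in both controls, the rise was at least 1.23 (limma adjusted p = 0.0386). Its renormalized difference was 1.53, not passing, and 18 of the 23 subunit genes had renormalized differences above 0.

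**Figure D5:**
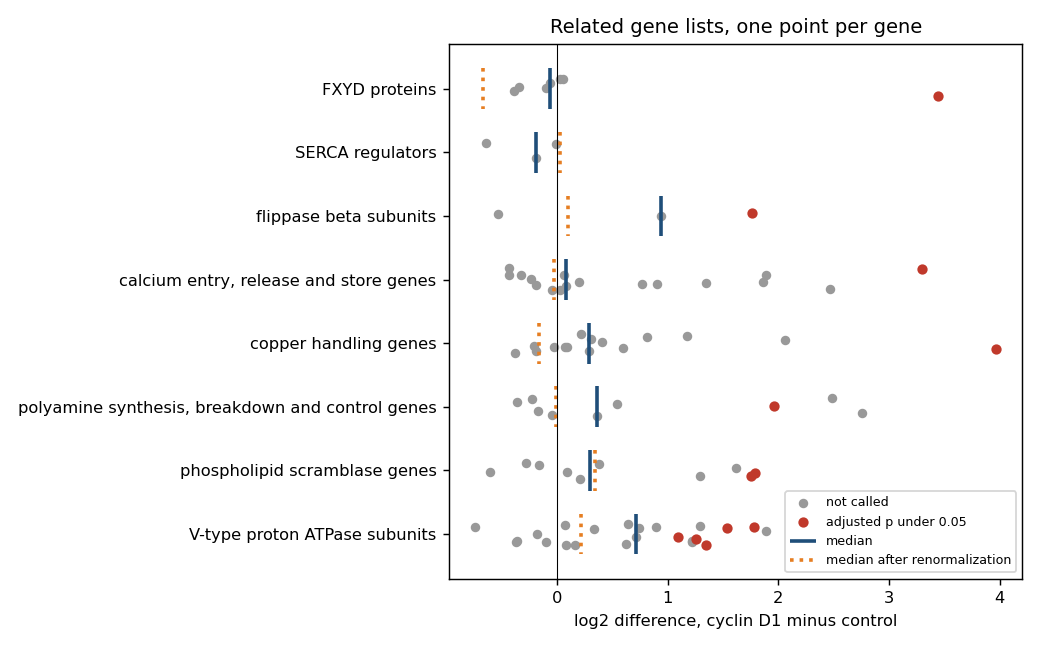
Log2 differences, cyclin D1 minus control (horizontal axis), of the genes in 8 related lists, 1 point per gene with random vertical offsets; red points passed limma's test, blue bars are list medians and dotted orange bars the medians after renormalization. The V-type list has the most genes that passed (5), and the medians of SERCA regulators, calcium, copper and polyamine genes change sign on renormalization.

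Of the other cell types listed, markers of adipocytes, leukocytes, fibroblasts and endothelium gave 0 calls, and those of nerve and Schwann cells gave 0. The mean adipocyte level was 4.78 and 4.87 in the controls and 4.42 to 5.91 in the cyclin D1 mice, and the mean fibroblast level was 4.08 and 5.36 against 4.81 to 5.46. Leukocyte means were 3.08 and 3.33 against 3.05 to 3.76, and endothelial means 2.97 and 3.26 against 3.26 to 3.70. Nerve and Schwann cell means were 2.81 and 2.85 against 2.82 to 2.90, with Nefl and Nefm at or below the floor on every array. Of 8 myoepithelial and smooth muscle markers 1 rose, Acta2 (12.5%, beside the 5.38% of all genes), and the means were 3.22 and 3.56 against 3.94 to 4.35. On renormalization the median difference went from 0.29 to -0.72 for adipocyte and from 0.43 to -0.65 for fibroblast markers. For leukocyte markers it went from -0.02 to -0.11, and for endothelial markers from 0.45 to 0.17. It went from 0.01 to 0.03 for nerve and Schwann cell markers and from 0.52 to 0.37 for myoepithelial and smooth muscle markers. The part of these cell types in the members' values was not tested.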

How the data were processed

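Total RNA of mammary gland from 5 mice was hybridised to Affymetrix whole-transcript arrays, 1 per mouse. The deposited values are log2 expression per probe set, for which the submitters' processing notes name RMA and version 1.1 of Affymetrix Expression Console. The log base was inferred from the range, 0.83 to 12.9. The set of arrays that RMA was run on and the genome build are not given in the sources used here. No raw intensities were used, so there is no detection call, and 5 arrays limit the precision.

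Of 35556 probe sets, 21789 had 1 gene symbol, 1621 several and 12146 none. The highest-mean probe set per symbol gave 19938 genes. Entrez identifiers matched RefSeq (GRCm38.p6) for all 37 members. Groups, taken from the sample titles, were compared by lmFit and eBayes of limma 3.58.1 (R 4.3.3; all 5 arrays, no covariate, 3 residual and 2.39 prior degrees of freedom), two-sided, with Benjamini-Hochberg adjustment over all genes and a threshold of 0.05. The fit was tested on simulated data. Where all arrays of the dimmer group were no higher than the olfactory receptor mean, a bound replaces the difference. The RMA quantile step leaves equal probe distributions, yet gene values differed in spread, so a second quantile normalization stands beside the results. It moved the median of all genes from -0.05 to -0.02, and median centring moved it to 0.02.

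All members found by the rule are named; some genes of the family are not reported here. In each related list the 3 genes with the smallest p are named where they inform, and pump partners gene by gene; Atox1, Casr, Acta2 and the muscle and nerve markers were chosen after their values were seen. The members and lists were chosen with earlier results of these data known. Alternatives were a second quantile normalization, median centring, an intensity trend, a robust prior, a filter on dim genes, averaged probe sets and all probe sets. Others were weights per array, a block for the replicate number, and each array left out. The last was the second quantile normalization without control replicate 1.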

Additional observations from a re-analysis of the deposited data

How the results depend on the processing

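Atp13a3, chosen for its difference, is one of the members in each count above 0 here and supports none of them. The count of members past the threshold and higher, 3 with Atp13a3 included, was 3 under an intensity trend, a robust prior, averaged probe sets, all probe sets and array weights, and 4 under median centring and a filter on dim genes. It was 0 after renormalization and ran from 0 to 4 when single arrays were left out, with 0 by limma without control replicate 1, cyclin D1 replicate 1 or cyclin D1 replicate 2, where 0 of all 19938 genes passed, and where 11, 9 and 11 members and 4973, 3568 and 3491 genes had an unadjusted p under 0.05. Renormalized without control replicate 1, 3 members were called higher and 2 lower (Atp13a1 and Atp2a3), beside 555 and 894 of all genes. The median member difference of 0.16 ran from 0.081 to 0.162 with single arrays left out and was 0.451 in the 20 members that passed the filter on dim genes.

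The replicate numbers are shared between groups but pair 2 mice only, and same-numbered mice had deviations that correlated at -0.026 and 0.126, so the numbers were not taken as pairs. With the replicate block 7 members were called higher (Atp11b, Atp13a3, Atp1b1, Atp1b3, Atp2a2, Atp2b1 and Atp2c1) and 0 lower, beside 1137 and 10 of all genes.

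Over 538 member values under 15 alternatives, 482 kept their sign and side of the threshold, and 24 members never changed sign. The 32 changes of sign were in members that did not pass. On renormalization they were Atp10d -0.265, Atp11a -0.063, Atp13a5 0.08, Atp8a2 0.162, Atp8b2 0.108 and Atp8b4 0.077. The medians were then 0.031 for SERCA regulators, -0.026 for calcium genes, -0.162 for copper genes and -0.014 for polyamine genes. With median centring they were Atp13a5 0.017, Atp8a2 0.042, Atp8b2 0.012 and the FXYD median 0.006. With array weights Atp8b3 was -0.042, and with the block Atp8b1 was -0.012 and Atp8b3 -0.161. Leaving out single arrays, signs changed within ranges of -0.099 to 0.419 (Atp13a2), -0.179 to 0.072 (Atp13a5), -0.84 to 0.0070 (Atp2a3), -0.048 to 0.592 (Atp2b2), -0.063 to 0.549 (Atp2c2), -0.111 to 0.056 (Atp8a2), -0.012 to 0.239 (Atp8b1), -0.161 to 0.153 (Atp8b3) and -0.298 to 0.053 (Atp8b4). Renormalized without control replicate 1 they were Atp11a -0.168, Atp13a2 -0.215, Atp13a5 0.212, Atp2b2 -0.397, Atp4b 0.091, Atp8a2 0.229 and Atp8b2 0.134, with medians of -0.157 for flippase beta subunits, -0.109 for calcium genes and -0.021 for copper genes. The cause of these changes was not tested. With 2 controls, each comparison rests on few mice.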
